A study of Mus musculus with 56 samples.

Results

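Cytosolic ribosomal protein genes encode the protein part of the ribosomes that translate nuclear mRNAs. They were taken from the heart transcript profiles by symbol: all symbols made of Rpl or Rps and a number with its usual suffix, together with Rplp0, Rplp1, Rplp2 and Rpsa, leaving out names marked as pseudogenes and the ribosomal S6 kinase genes. This gave 87 of 22864 listed genes, of which 52 carry a large subunit symbol (Rpl) and 35 a small subunit symbol (Rps). The annotation calls 82 of them protein coding and 5 pseudogenes (Rps4l, Rps3a2, Rps3a3, Rpl6l and Rpl32l). A mean of at least 1 TPM (a level per transcript length on a scale whose sum over all genes does not differ between libraries) was needed for testing, and 85 members of 13869 tested genes passed. Rpl32l at 0.352 TPM and Rpl39l at 0.504 TPM did not.

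The hearts came from female C57BL/6J mice aged 9 weeks under 12 h of light and 12 h of dark. For 7 days all of them had food in one part of the day only, with daytime-restricted feeding (DRF) in one group and nighttime-restricted feeding (NRF, the control) in the other. Hearts were collected every 4 h from zeitgeber time 0 (ZT0, lights on) to ZT24, with 4 libraries per regimen and time, which gave 14 groups and 56 libraries of polyA RNA. No genotype or agent differed between groups. The labels do not say that each library is a separate mouse, so p-values measure the spread between these libraries.

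Libraries held 29.5 M to 53.4 M reads counted in the listed genes (median 37.7 M, M standing for 1e6), which is not the number of reads sequenced. Mitochondrially encoded genes took 16.5% to 24.7% of the counted reads. The heart muscle genes Myh6 and Tnnt2 averaged 4921 and 1337 TPM. Markers of atrial muscle and red cells varied most between libraries: Myl7 ranged from 3.78 to 1873 TPM and the 5 red cell genes summed to 1667 to 66737 TPM. Myh1 and Myh4 of skeletal muscle were not listed, and the T cell gene Cd3e averaged 0.113 TPM. In such bulk tissue, fewer cells of a type and less RNA per cell cannot be told apart.

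Each ribosome holds one copy of nearly every ribosomal protein, apart from the stalk proteins Rplp1 and Rplp2, so the genes need to be expressed in proportion. Their mRNAs are known for a terminal oligopyrimidine (TOP) start, a C followed by a run of C and T at the very 5′ end, through which translation is switched by mTORC1, the nutrient-sensing kinase, and the RNA-binding protein Larp1. A change in feeding can thus act on their translation without a change in mRNA level, and mRNA level is what was measured here. Several members have a paralog with tissue-restricted expression, such as Rpl3l in striated muscle.

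The first bases of a few members are shown because this start is the sequence feature the family is known for. RefSeq (build GRCm38.p6) gave a start for 63 members. A C followed by at least 4 C or T at the annotated first base was found in 14 of the 63 (22.2%), against 813 of 27025 genes (3.01%). Allowing the start to lie up to 2 bases away raised this to 22 members (34.9%) and 2863 genes (10.6%). The search was only on the strand that reads as the mRNA. Each sequence runs from 10 bases before the annotated first base to 20 bases from it, and capitals mark the C and T run where it begins at that base. The first 5 have such a run, and the last 4 do not.

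Rps6, chr4:86857348-86857377, minus strand: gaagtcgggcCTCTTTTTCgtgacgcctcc
Rps27, chr3:90213629-90213658, minus strand: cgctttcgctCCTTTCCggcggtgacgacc
Rpl38, chr11:114668570-114668599, plus strand: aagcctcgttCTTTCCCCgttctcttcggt
Rplp2, chr7:141447641-141447670, plus strand: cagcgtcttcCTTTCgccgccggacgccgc
Rpl15, chr14:18270967-18270996, minus strand: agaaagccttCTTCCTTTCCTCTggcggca
Rps27l, chr9:66946076-66946105, plus strand: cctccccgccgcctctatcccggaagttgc
Rpl7l1, chr17:46782637-46782666, minus strand: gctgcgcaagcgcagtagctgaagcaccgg
Rpl3l, chr17:24727816-24727845, plus strand: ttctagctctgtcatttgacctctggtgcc
Rpl11, chr4:136053374-136053403, minus strand: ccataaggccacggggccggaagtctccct

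Rps27 and Rps27l, or Rps6 and Rpl7l1, differ at this position. No match says only that these letters are not at the annotated base.

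Most ribosomal protein genes were abundant. The median member stood at 313 TPM, 73 members reached 100 TPM and 7 reached 1000 TPM. Together the 87 members took 2.67% to 4.97% of all TPM in a library (median 3.62%). The highest was Rplp1 of the stalk at 2727 TPM, followed by Rpl36 at 1717 TPM, Rps15 at 1608 TPM, the stalk base Rplp0 at 1521 TPM, Rps3a1 at 1323 TPM, Rps2 at 1136 TPM and Rpl41 at 1011 TPM. Rplp2, the partner of Rplp1, was listed at 295 TPM. Members of one particle were thus measured at very unequal levels. Among members with known roles outside the ribosome's core, Rps6, the substrate of S6 kinase, averaged 717 TPM, and Rpsa, also a laminin receptor, averaged 488 TPM. Rpl5 and Rpl11, which bind the 5S rRNA and can restrain Mdm2, stood at 225 and 250 TPM. Rps3 averaged 261 TPM, Rps25 293 TPM, Rpl10a 252 TPM, and Rps19, mutated in Diamond-Blackfan anemia, 124 TPM.

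A few protein coding members were listed at very low levels. Rps10 averaged 1.56 TPM, Rpl24 8.90 TPM, Rpl13a 11.1 TPM and Rpl21 38.9 TPM, although each encodes a standard component of the ribosome. Ribosomal protein genes have many near-identical processed copies in the mouse genome, and how reads that match several copies were counted is not given in the sources used here. Levels of these genes, and of the paralogs and pseudogenes below, are uncertain for that reason.

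Paralogs were measured at different levels. Rpl3l, the striated muscle form of Rpl3, stood at 313 TPM and Rpl3 at 187 TPM. The lowest, median and highest Rpl3l values were 256, 311 and 360 TPM in the 28 DRF libraries and 270, 316 and 350 TPM in the 28 NRF libraries. For Rpl3 they were 133, 184 and 246 TPM under DRF and 148, 186 and 270 TPM under NRF. The values of both genes overlapped widely between regimens. In the other pairs the standard form was higher: Rps4x 683 against Rps4l 52.0 TPM, Rpl7 402 against Rpl7l1 36.6 TPM, Rps27 411 against Rps27l 209 TPM, Rpl22 158 against Rpl22l1 21.2 TPM, and Rpl39 247 against Rpl39l 0.504 TPM. Rpl10 averaged 457 TPM, and no value for Rpl10l was used here.

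Members differed in how steady they were. The coefficient of variation over the 56 libraries had a median of 12.1% and ran from 6.82% for Rpl4 to 53.0% for Rps27a. Rps27a, which encodes a fusion of ubiquitin and a small subunit protein, had a lowest, median and highest value of 52.7, 94.8 and 260 TPM under DRF and 57.3, 79.1 and 247 TPM under NRF. Rpl17 (37.2%) ran from 129 to 647 TPM and Rps27 (30.5%) from 140 to 719 TPM. For these 3 genes libraries of one group could lie several fold apart. Within groups, the SD of a member on the log2 scale had a median of 0.165, against 0.122 for 839 other genes of at least 100 TPM and 0.141 for all genes tested.

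The members moved together between libraries. In 28 of 56 libraries at least 90% of the 85 tested members lay on the same side of their group mean, above it in 17 libraries and below it in 11. Members are short, with a median length of 1726 bases against 3896 bases for all genes tested, so a measure of the balance between short and long transcripts was set beside this. It is the median log2 deviation of 903 other genes under 1500 bases minus that of 2152 other genes over 5000 bases. It lay above its group mean in 16 of the 17 libraries where members were high, and below it in 10 of the 11 where they were low. The libraries with the highest and the lowest member share, DRF ZT16 replicate 4 (4.97%) and DRF ZT20 replicate 1 (2.67%), had a short-minus-long difference of 0.24 and -0.17. The part of this balance in the group differences below was tested only by adding it to the fit, with the values given there.

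**Figure D1:**
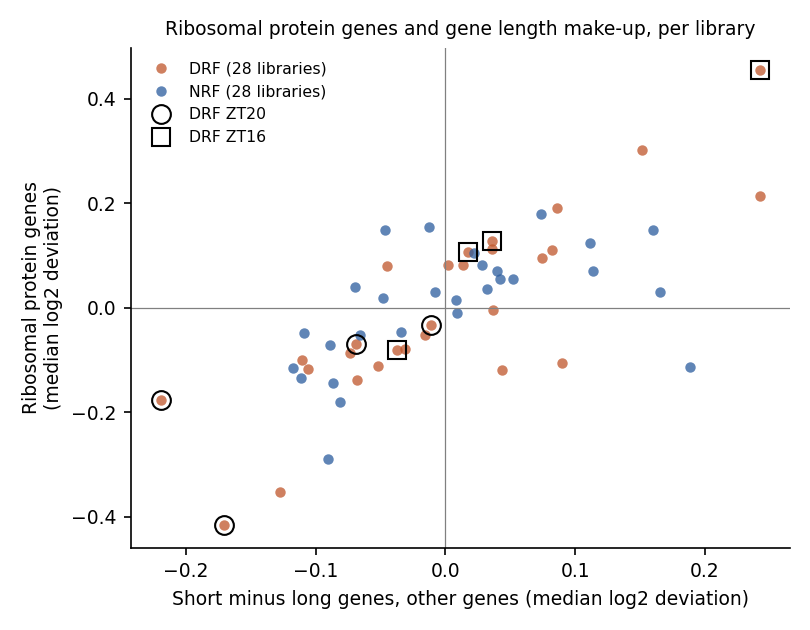
For each of 56 libraries (DRF orange, NRF blue), the x axis gives the median log2 deviation of short minus long genes, ribosomal protein genes left out, and the y axis the median log2 deviation of the 85 ribosomal protein genes. The libraries with the highest and the lowest member levels are one of DRF ZT16 (squares) and one of DRF ZT20 (circles).

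The summed share was alike in both regimens, with 3.60% ± 0.485 (SD, n = 28) under DRF and 3.60% ± 0.297 under NRF. By time, the 4 DRF libraries at ZT16 held 3.39%, 3.84%, 3.91% and 4.97%, and the 4 NRF libraries 3.10%, 3.45%, 3.65% and 3.94%. The groups overlapped at ZT16. At ZT20 the DRF libraries held 2.67%, 3.13%, 3.41% and 3.47%, all below the NRF libraries at 3.51%, 3.68%, 3.69% and 3.82%. DRF thus had its highest group mean at ZT16 (4.03% ± 0.669) and its lowest 4 h later (3.17% ± 0.364), while the corresponding NRF means were 3.54% ± 0.351 and 3.67% ± 0.130 (n = 4 each).

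**Figure D2:**
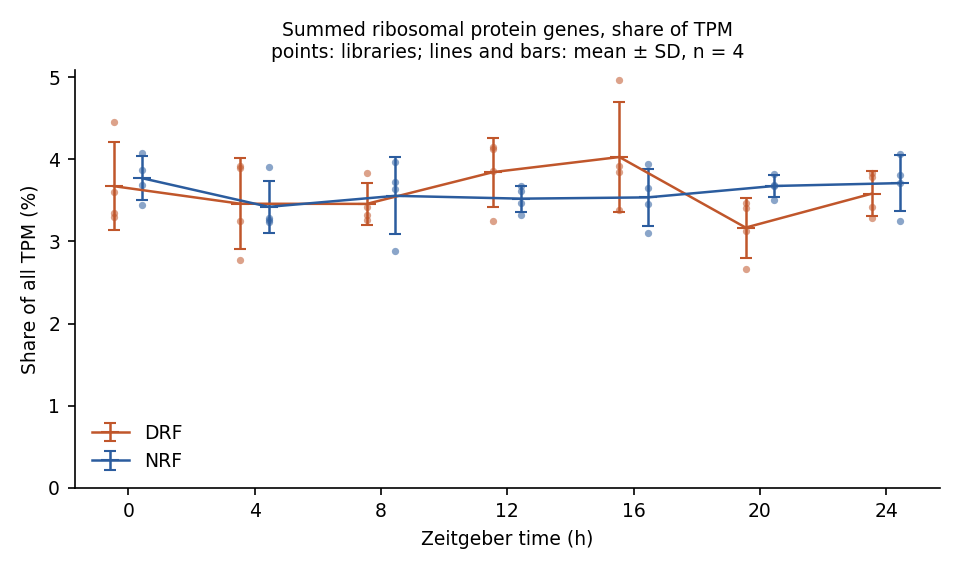
The summed level of the 87 ribosomal protein genes, as a percentage of all TPM (y axis), against zeitgeber time in h (x axis), with points for libraries and lines with bars for the mean ± SD of 4 libraries under DRF (orange) and NRF (blue). The DRF mean goes from 4.03% at ZT16 to 3.17% at ZT20, where the 4 DRF libraries lie under the 4 NRF libraries.

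Whether the ribosomal protein genes oscillated over the day was asked by fitting a 24-h cosine to log2(TPM + 1) in each regimen with limma, with p-values adjusted by Benjamini-Hochberg over all 13869 genes and a threshold of 0.05. Few members were rhythmic. Under NRF 9 of 85 members passed (10.6%), where 37.3% of all genes did. Under DRF 3 members passed (3.53%), where 32.4% of all genes did. At an unadjusted p under 0.05 the counts were 15 and 9 members, where 47% and 44.1% of all genes passed. The median amplitude, from mean to peak on the log2 scale, was 0.06 under NRF and 0.08 under DRF, against 0.10 for all genes in either regimen. It lay below the median of all genes for 69 members under NRF and 59 under DRF. An F test of any difference among the 7 times called 4 members under NRF and 5 under DRF, where 26.1% and 31.6% of all genes passed. Rescaling the libraries by the median of ratios, which is less moved by a few abundant genes, raised the counts to 29 members under NRF, where 46.5% of all genes passed, and 12 under DRF, where 32.9% did. Without ZT4, no member passed under DRF, where 30.8% of all genes did.

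Rhythms in both regimens were found for Rps4l and Rpl7l1, the 2 dual-oscillating members. Rps4l (chr6:148354656-148355598), a copy of the small subunit gene Rps4x that the annotation calls a pseudogene, had the largest amplitude among the called members in either regimen. Rps27a, not called, had 0.44 under DRF. At ZT20 the values of Rps4l were 29.8, 33.0, 45.9 and 51.0 TPM under DRF and 38.4, 38.7, 39.9 and 42.6 TPM under NRF. At ZT4 they were 59.0, 62.8, 66.4 and 81.5 TPM under DRF and 50.6, 60.4, 63.5 and 71.4 TPM under NRF. In either regimen all 4 libraries at ZT4 lay above all 4 at ZT20. The amplitude was 0.34 (SE 0.04) with a peak at 7.14 h under NRF (adjusted p = 2.0e-06) and 0.30 (SE 0.07) with a peak at 6.08 h under DRF (adjusted p = 0.0033). The peak moved by -1.06 h (SE 0.85), and by clock time the rhythms did not pass a test of their difference (adjusted p = 0.54). Aligned to food, with DRF times moved by 12 h, they differed (adjusted p = 3.2e-08), and this call was kept under all 20 alternatives tried. The rhythm call under DRF was lost in 1 of 20. Rps4x, at 683 TPM, was called in neither regimen. Reads of the copies may be shared between them.

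Rpl7l1 (chr17:46773907-46782672, minus strand) is a paralog of the large subunit gene Rpl7. Under NRF its mean was highest at ZT0, with values of 37.8, 38.3, 42.9 and 45.8 TPM, and lowest at ZT12, with 32.9, 33.1, 33.7 and 35.2 TPM. Under DRF the order was otherwise, with 33.6, 37.7, 40.3 and 42.4 TPM at ZT12 and 31.3, 35.3, 36.3 and 39.9 TPM at ZT0. The ZT0 and ZT12 libraries did not overlap under NRF and did overlap under DRF. The fitted peak was at 23.5 h with an amplitude of 0.09 (SE 0.03) under NRF and at 7.87 h with 0.13 (SE 0.04) under DRF (adjusted p = 0.033 and 0.035). The shift was 8.40 h (SE 1.71), and by TPM Rpl7l1 was the only member whose rhythms differed by clock time (adjusted p = 0.0046), or 1.18% of members, where 27.7% of all genes differed. At an unadjusted p under 0.05 there were 3 such members, where 39.1% of all genes passed. By clock time 7 members passed after median-of-ratios scaling and 8 after the depth scaling of the deposited values, where 33.1% and 33.2% of all genes did. By time since food its rhythms did not pass a test of their difference (adjusted p = 0.21). The amplitude calls were lost in 8 of 20 alternatives under NRF and 11 of 20 under DRF, and the clock time call in 2 of 20.

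The other rhythmic members were called in 1 regimen. Under NRF these were the small subunit genes Rps29 (amplitude 0.28, SE 0.04, adjusted p = 8.7e-05) and Rps28 (0.17), and the large subunit genes Rpl38 (0.18), Rpl22l1 (0.16), Rpl13a (0.14), Rpl37 (0.14) and Rpl3 (0.14). The call held under all 20 alternatives for Rps29, was lost in 1 of them for Rpl38, and was lost in 4 to 9 for the other 5 genes. Rps29, Rpl38, Rps28 and Rpl37 peaked between 23.9 h and 1.14 h, around lights on. Rps29 had 667, 689, 733 and 872 TPM at NRF ZT0 and 415, 466, 532 and 536 TPM at NRF ZT12, without overlap. Under DRF its values at ZT0 (586, 611, 692 and 712 TPM) and ZT12 (463, 520, 546 and 626 TPM) overlapped, and the amplitude of 0.09 (SE 0.08) did not pass. Rpl38, which is needed for translation of a set of Hox mRNAs, ran from 495 to 539 TPM at NRF ZT0 and from 348 to 427 TPM at NRF ZT12. By clock time neither gene's difference between regimens passed (adjusted p = 0.17 for Rps29 and 0.36 for Rpl38), so the missing call under DRF does not show a lost rhythm. Under DRF, Rpl6 was called with an amplitude of 0.12 (SE 0.04) and a peak at 14.01 h. Its amplitude under NRF was 0.08 with a peak at 14.3 h, which did not pass, and the DRF call was lost in 10 of 20 alternatives.

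Aligned to time since food, 8 members differed in rhythm between regimens (9.41%), where 41.5% of all genes did. At an unadjusted p under 0.05 there were 14 members, where 49.8% of all genes passed. They were the small subunit genes Rps4l, Rps29, Rps7 and Rps3a1 and the large subunit genes Rpl6, Rpl12, Rpl3 and Rpl13a. Their fitted peak moved by at most 3.54 h (SE 2.25) by clock time, the value for Rps3a1, and by 0.28 h for Rpl6. The test favours genes whose peaks lie near each other by clock time, so small shifts are partly built in. Rps3a1, Rps7 and Rpl12 were called rhythmic in neither regimen. The standard form Rpl3 was at 10.6 h and 10.2 h. This count of 8 members ranged from 2 to 23 over the alternatives. It was 2 without replicate 2 and without ZT12, where 27% and 35.3% of all genes passed. With the short-minus-long balance in the fit it was 23, where 45.4% did, and after median-of-ratios scaling 22, where 44.9% did.

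**Figure D3:**
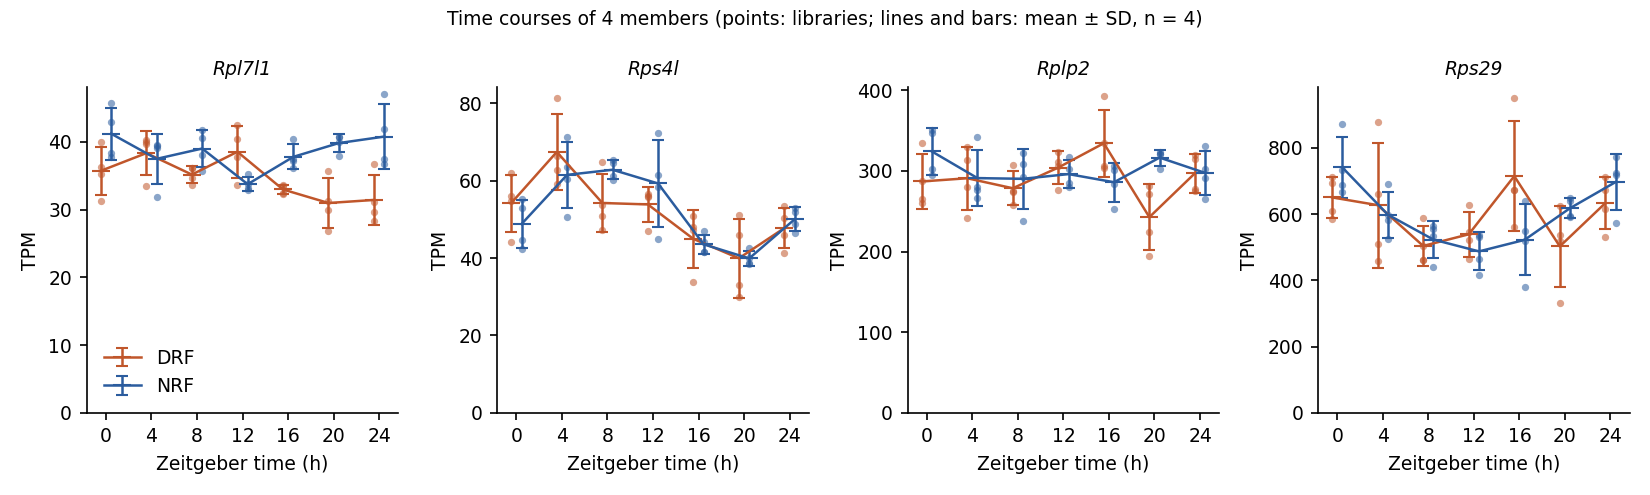
Levels in TPM (y axes) against zeitgeber time in h (x axes) for Rpl7l1, Rps4l, Rplp2 and Rps29, with points for libraries and lines with bars for the mean ± SD of 4 libraries under DRF (orange) and NRF (blue). Rpl7l1 is lower under DRF without overlap at ZT20 and meets NRF at 36.7 TPM at ZT24. Rps4l is higher at ZT4 than at ZT20 in both regimens, Rplp2 is lower under DRF at ZT20, and Rps29 is lowest at ZT12 under NRF.

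The mean level over the day differed between regimens for 1 member of 85, again Rpl7l1 (1.18% of members, where 29.0% of all genes differed and 26.1% were lower under DRF). Its lowest, median and highest values were 26.9, 34.2 and 42.4 TPM in the 28 DRF libraries and 31.9, 38.2 and 47.0 TPM in the 28 NRF libraries. The ranges overlapped widely. The log2 difference was -0.15 (SE 0.03, adjusted p = 0.00053), and it passed under all 20 alternatives. The direction of the 85 members at this comparison depended on the scaling: 35 were fitted higher and 50 lower under DRF by TPM, and 78 higher and 7 lower after median-of-ratios scaling. Both medians were within 0.05 of no difference.

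At single times, DRF and NRF were compared with 4 libraries each. No member passed at ZT0, ZT4, ZT8 or ZT12, where 11.3%, 0.447%, 0.389% and 7.74% of all genes passed by limma. At an unadjusted p under 0.05 there were 1, 0, 0 and 6 members, where 25.2%, 12%, 14.9% and 23.2% of all genes passed. At ZT12 3 members passed an adjusted p after either median-of-ratios scaling or the depth scaling, where 10.5% and 10.3% of all genes did, and 2 without mitochondrially encoded genes, where 6.76% did. At ZT16 1 member passed and it was higher, where 6.94% of all genes passed and 0.663% were higher. After median-of-ratios scaling and after the depth scaling 9 members passed at ZT16, where 4.34% and 4.41% of all genes did. At ZT20 5 members passed, all lower (5.88%), where 14.8% of all genes passed and 11.4% were lower. At ZT24 1 member passed, where 8.89% of all genes did. At an unadjusted p under 0.05 there were 17 members at ZT16, 39 at ZT20 and 2 at ZT24, where 24.3%, 30.4% and 24.3% of all genes passed.

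Although few members passed singly, most leaned one way at 3 of the times. Of 85 members, 77 were fitted higher under DRF at ZT12 (median log2 difference 0.12, all genes -0.06), 82 were higher at ZT16 (0.17, all genes -0.10) and 84 were lower at ZT20 (-0.22, all genes -0.07). At ZT20 all 4 DRF libraries lay below all 4 NRF libraries for 32 members (37.6%), where this held for 15.3% of all genes. At ZT16 all 4 DRF libraries lay above for 4 members (4.71%), against 1.76% of all genes. Because members move together within a library, these counts are not independent of each other.

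The 3 directions held under each scaling tried. After median-of-ratios scaling 82 members were higher at ZT12, 84 higher at ZT16 and 82 lower at ZT20, and with mitochondrially encoded genes left out of the TPM sum the numbers were 79, 83 and 76. Leaving them out moved the median of all genes at ZT20 by 0.11. Relative to the median of all genes, the median member stood 0.18 higher at ZT12, 0.27 higher at ZT16 and 0.15 lower at ZT20 by TPM, and 0.19, 0.28 and -0.14 after median-of-ratios scaling. With the short-minus-long balance in the fit, 33 members were higher and 52 lower at ZT12, 52 and 33 at ZT16, and 34 and 51 at ZT20. Relative to the median of all genes, the median member in that fit stood 0.02 higher at ZT12, 0.11 higher at ZT16 and 0.07 higher at ZT20, where the sign had turned. That balance itself was -0.12 ± 0.095 (SD, n = 4) at DRF ZT20 and 0.06 ± 0.073 at NRF ZT20. At the other times the median member lay within 0.05 of 0 by TPM and the split depended on the scaling. By TPM, 27 members were higher and 58 lower at ZT0, 49 and 36 at ZT4, 18 and 67 at ZT8, and 23 and 62 at ZT24. After median-of-ratios scaling these were 50 and 35, 56 and 29, 65 and 20, and 22 and 63, and without mitochondrially encoded genes 49 and 36, 37 and 48, 66 and 19, and 41 and 44. With the short-minus-long balance in the fit they were 11 and 74, 53 and 32, 28 and 57, and 72 and 13, with a median of 0.07 at ZT24.

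Of the markers of other cell types, the atrial, fat and red cell lists were fitted in the same direction as the members at these times, although none of their genes passed. The 4 atrial muscle genes had a median log2 difference of 2.77 at ZT12, 1.25 at ZT16 and -2.25 at ZT20, with 4 of 4 in the direction of the median each time. The 4 fat cell genes had 0.81, 0.45 and -0.52, also with 4 of 4. The 5 red cell genes had 1.15, 0.48 and -0.18, with 5, 5 and 4 of 5 in that direction. Mean TPM, which high libraries weigh on more, went otherwise in part: at ZT20 4 of 5 red cell genes had a higher mean under DRF, and at ZT16 the atrial genes split into 2 higher and 2 lower. Leukocyte, fibroblast and endothelial lists were fitted lower under DRF at all 3 times, against the members at ZT12 and ZT16. Their medians at ZT12, ZT16 and ZT20 were -0.15, -0.06 and -0.22 for the 5 leukocyte genes tested, -0.24, -0.25 and -0.31 for the 4 fibroblast genes, and -0.20, -0.28 and -0.14 for the 4 endothelial genes. Summed levels of the atrial, fat and red cell lists overlapped between regimens: at ZT12 the atrial genes summed to 954 to 4602 TPM under DRF and 189 to 1630 TPM under NRF, at ZT16 to 644 to 2040 and 236 to 4264 TPM, and at ZT20 to 94.2 to 2609 and 432 to 1585 TPM. The fat cell genes summed to 65.5 to 142 and 12.0 to 161 TPM at ZT12, 35.6 to 190 and 28.5 to 173 TPM at ZT16, and 4.82 to 58.8 and 33.2 to 65.2 TPM at ZT20. The red cell genes summed to 4890 to 31402 and 2182 to 42595 TPM at ZT12, 5939 to 46804 and 3273 to 32209 TPM at ZT16, and 1858 to 51787 and 2867 to 40343 TPM at ZT20. The part of these markers in the leaning of the ribosomal protein genes was not tested.

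**Figure D4:**
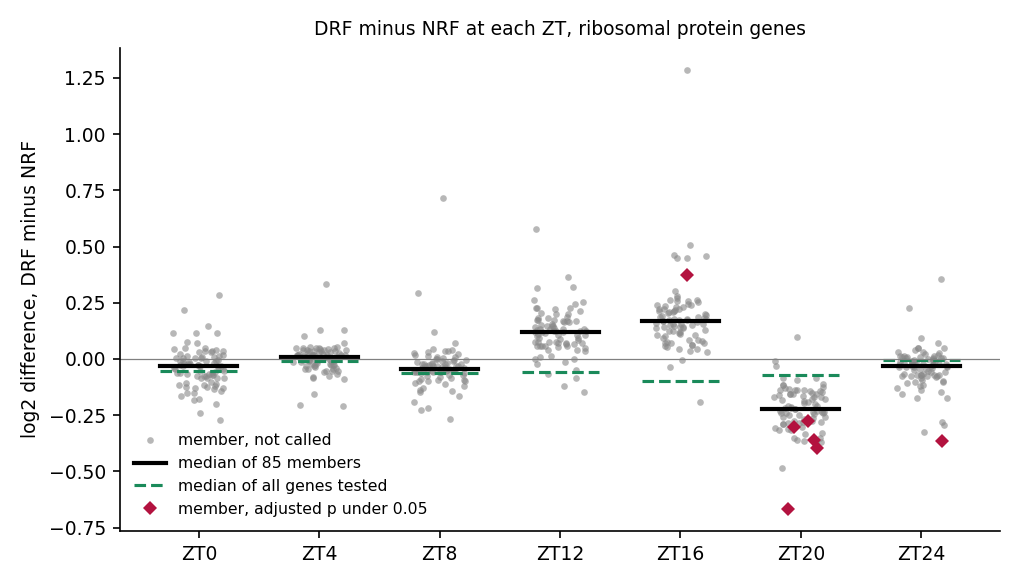
The log2 difference DRF minus NRF (y axis) of each of 85 ribosomal protein genes at each ZT (x axis), with red diamonds for members that passed an adjusted p of 0.05, black bars for the median of the members and dashed green bars for that of all genes tested. The members sit above all genes at ZT12 and ZT16 and below them at ZT20.

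The member called at ZT16 was Rpl36 (chr17:56613416-56614243), a large subunit protein. It had 1787, 2020, 2044 and 2645 TPM under DRF and 1334, 1647, 1767 and 1777 TPM under NRF. The groups did not overlap, and the log2 difference was 0.38 (SE 0.12, adjusted p = 0.039). Without the DRF library of 2645 TPM, replicate 4, no member passed at ZT16, where 1.64% of all genes did. The same held without DRF replicate 2 or 3 (all genes 4.72% and 3.72%) or NRF replicate 1, 2 or 3 (5.31%, 3.01% and 3.27%). Without DRF replicate 1, 3 members passed, where 9.26% of all genes did. No member passed without the filter on low values or with the short-minus-long balance in the fit, where 3.02% and 4.17% of all genes did. The libraries at this time also differed in that balance, 0.06 ± 0.122 under DRF and -0.06 ± 0.051 under NRF.

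The 5 members called at ZT20 all carry an Rpl symbol, as do 52 of the 87 members. The stalk protein gene Rplp2 (chr7:141447370-141451585) had 194, 224, 271 and 281 TPM under DRF and 302, 321, 321 and 323 TPM under NRF, a log2 difference of -0.40 (adjusted p = 0.0077). Its partners Rplp1 and Rplp0 had log2 differences of -0.30 and -0.16 and did not pass (adjusted p = 0.12 and 0.345). Rpl11 had 182, 205, 222 and 224 TPM under DRF and 254, 255, 255 and 262 TPM under NRF (log2 difference -0.30, adjusted p = 0.033). Rpl5, which joins Rpl11 on the 5S rRNA, had a log2 difference of -0.14 that did not pass. Rpl15, a core protein of the large subunit, had 217, 240, 272 and 281 TPM against 294, 299, 303 and 320 TPM (log2 difference -0.27, adjusted p = 0.047). None of these 3 genes overlapped between regimens.

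Rpl24, which forms a bridge to the small subunit, had 6.11, 6.27, 6.39 and 9.50 TPM under DRF at ZT20 and 10.5, 11.4, 11.6 and 13.1 TPM under NRF. This was the largest difference at this time, with a log2 value of -0.67 (adjusted p = 0.030), at a level where the counting of shared reads is in doubt. Rpl7l1 had 26.9, 30.0, 31.2 and 35.8 TPM against 37.9, 39.9, 40.7 and 40.8 TPM (log2 difference -0.36, adjusted p = 0.0028). At ZT24 it had 28.3, 29.6, 31.1 and 36.7 TPM under DRF and 36.7, 37.5, 41.9 and 47.0 TPM under NRF (log2 difference -0.37, adjusted p = 0.0036). The difference was thus of one size at both times, with values that met only at 36.7 TPM at ZT24. Of the 5 genes, Rplp2 and Rpl15 carry the C and T run at the annotated start, and Rpl11, Rpl24 and Rpl7l1 do not.

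The count at ZT20 rested on single libraries. It was 1 without DRF replicate 1, 2 without DRF replicate 4, 15 without DRF replicate 2 and 12 without DRF replicate 3, where 8.4%, 15.7%, 11.7% and 12.5% of all genes passed. Leaving out NRF replicate 1, 2 or 3 gave 3, 2 and 3, where 9.6%, 9.81% and 11.1% did. It was 2 after median-of-ratios scaling, with Rplp2 and Rpl7l1 left, and 1 with the short-minus-long balance in the fit, where 17.2% and 11% of all genes passed. Rpl7l1 was the gene left in that fit and without DRF replicate 1. Of 19 alternatives, the call was lost in 1 for Rpl7l1, 3 for Rplp2, 13 for Rpl24 and 15 for each of Rpl11 and Rpl15. Other measures moved at ZT20 too. Mitochondrially encoded genes took 23.2% of reads under DRF (22.3% to 24.7%) and 20.02% under NRF (19.3% to 20.4%). The 6 leukocyte markers summed to 572 to 651 TPM under DRF and 697 to 842 TPM under NRF, with 4 of 6 lower under DRF. The 4 fibroblast markers summed to 347 to 439 and 434 to 487 TPM, with 4 of 4 lower, and the 4 endothelial markers to 397 to 499 and 457 to 519 TPM, with 3 of 4 lower. The 6 heart muscle markers summed to 22876 to 29270 and 28290 to 30988 TPM, with 4 of 6 lower. Their part in the difference of the ribosomal protein genes was not tested.

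Members fixed by role gave no further call. At ZT20 the log2 difference was -0.14 for Rps6, -0.09 for Rpsa, -0.24 for Rps3, -0.37 for Rps19, -0.13 for Rps25 and -0.15 for Rpl10a, and at ZT16 it was 0.12, 0.11, 0.12, 0.17, 0.18 and 0.24. Rps6 had 583, 669, 676 and 728 TPM under DRF at ZT20 and 679, 721, 742 and 776 TPM under NRF, which overlapped. Between ZT24 and ZT0, a day apart, no member differed under either regimen by limma, where 0.469% of all genes differed under DRF and 0.0577% under NRF. At an unadjusted p under 0.05 there were 8 and 4 members, where 12.3% and 9.16% of all genes passed. In all, 18 members (21.2%) were called in at least one comparison between regimens or cosine rhythm test, where 71.1% of all genes were, and 67 in none of these. Of the 67, Rpl3l and Rpl7a passed the F test over the 7 times under DRF (limma, adjusted p = 0.021 and 0.022).

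Genes that build ribosomes, or share their control, were counted beside the members. Of 42 ribosome biogenesis genes, a rhythm was called in 23 under NRF and in 25 under DRF, and 29 differed in rhythm when aligned to food. These are 54.8%, 59.5% and 69.0% of the list, where 37.3%, 32.4% and 41.5% of all genes passed. Among them Polr1a, the largest subunit of RNA polymerase I, had an amplitude of 0.20 under NRF and 0.27 under DRF. Tcof1, its nucleolar partner in rRNA transcription, had 0.23 and 0.18, Gar1 of the pseudouridylation complex 0.20 and 0.16, and Bysl, needed for the small subunit, 0.17 and 0.24. Of 17 other TOP mRNAs, 10 passed under NRF (58.8%) and 4 under DRF (23.5%), beside the 37.3% and 32.4% of all genes. Under NRF the intermediate filament gene Vim had an amplitude of 0.23, the splicing factor gene Hnrnpa1 0.22, the initiation factor gene Eif4b 0.19 and the elongation factor gene Eef1a1 0.18. Fau, which encodes a fusion with a small subunit protein, and Rack1, whose protein binds the small subunit, were called in neither regimen. Of 14 growth signalling genes, 7 passed in the night-fed (50%) and 2 in the day-fed hearts (14.3%), led by Mycn at 0.54 under NRF. For 81 mitochondrial ribosomal protein genes the counts were 24 and 15 (29.6% and 18.5%). The difference between these lists and the members was not tested.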

How the data were processed

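PolyA RNA of mouse hearts was sequenced as paired reads in 56 libraries. The submitters' processing notes name HISAT2 2.0.5, featureCounts 1.5.0-p3 and mm10, with no annotation release given in the sources used here. The deposited table holds values called TPM by the authors. They proved to be log2(1 + depth-scaled reads) divided by exon length and scaled per library, so the deposited log2 values compress differences. Whole reads were recovered from them (within 0.1 read for 99.9996% of values below 200000 reads) with GENCODE lengths or, for 832 genes, a searched length, and linear TPM was computed anew. No column lacked a sample.

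Tests used limma 3.58.1 (R 4.3.3, mean-variance trend) on log2(TPM + 1), which understates changes of low genes, keeping genes that averaged 1 TPM or more, with Benjamini-Hochberg adjustment over 13869 genes. A 24-h cosine per regimen stood in for the MetaCycle analysis of the study's methods. Rhythms were compared by clock time and with DRF moved by 12 h, and levels by ZT and over the day, all groups sharing 1 estimate of spread. Scripts were tested on simulated data. Alternatives were pseudocount, scaling, mitochondrial genes, filter, left-out libraries or times, and a block. A length covariate and left-out libraries DRF ZT16 replicate 4 and DRF ZT20 replicate 1 over all comparisons were added after seeing the data.

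The members and lists were chosen with earlier results of these data known. Genes were named by role, by up to 3 largest called effects per comparison and direction, and by highest and lowest level. Members of high variation, Rps15, Rps2, Rpl41, Rpl4, Rpl21, Rps27a and Rpl17 among them, were named after their values were seen, as were the remaining called members.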

Additional observations from a re-analysis of the deposited data

Results flagged for a closer look

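In 9 measures over 14 groups of 4 libraries each, 11 of 126 groups had a library far from the other 3 by Dixon's test, where chance gives about 5%. Some measures were chosen after their values were seen, and members move together within a library. That rate is therefore no measure for these 11 groups. Rps27a accounted for 4 of them, each with a high library: 157 TPM at DRF ZT0 (others 80.7 to 92.2), 219 TPM at DRF ZT20 (52.7 to 76.6), 247 TPM at NRF ZT8 (63.7 to 68.8) and 237 TPM at NRF ZT24 (69.6 to 86.8). Rpl7l1 had a low library at ZT4 in both regimens, 33.4 TPM under DRF (others 39.7 to 40.2) and 31.9 TPM under NRF (39.1 to 39.6). Rps4l had 46.9 TPM in 1 library of DRF ZT12 (others 55.8 to 56.7). Rpl6 had 286 TPM in 1 library of DRF ZT0 (others 213 to 220) and 267 TPM in 1 of NRF ZT20 (250.1 to 252). Rplp2 had 302 TPM in 1 library of NRF ZT20 (others 321 to 323), which still lay above every DRF library at that time. The summed share was 3.9% in 1 library of NRF ZT4 (others 3.24% to 3.28%).

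Rhythms that differed between regimens were those of Rpl7l1 by clock time (adjusted p = 0.0046) and, by time since food, Rps4l (3.2e-08), Rpl6 (0.0035), Rps29 (0.0052), Rpl12 (0.021), Rps7 (0.028), Rpl3 (0.037), Rpl13a (0.040) and Rps3a1 (0.040), all from limma with adjustment over all genes.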

How the results depend on the processing

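No called level difference changed direction under any alternative. Amplitudes and sizes of rhythm differences have no sign, so this could not be asked of them, and their peak times were not compared. The median of the members, which carries no test, kept its sign at ZT16 and ZT20 under all alternatives run, and at ZT12 under all but the length covariate (-0.02). With that covariate the median shrank from 0.17 to 0.03 at ZT16 and from -0.22 to -0.02 at ZT20. For mean level, the other times and ZT24 minus ZT0, where it lay within 0.05 of 0, it changed sign under several, among them median-of-ratios scaling (0.05 for mean level, 0.02 at ZT0, 0.03 at ZT8 and 0.05 for ZT24 minus ZT0 under NRF) and the length covariate (0.07 at ZT24 and 0.09 for ZT24 minus ZT0 under DRF). Under median-of-ratios scaling, the counts of called members were 29 for NRF rhythms, 12 for DRF rhythms, 7 and 22 for rhythm differences by clock time and by time since food, 4 for mean level, 3, 9 and 2 at ZT12, ZT16 and ZT20, and 13 at any ZT (of all genes 46.5%, 32.9%, 33.1%, 44.9%, 20.3%, 10.5%, 4.34% and 17.2% passed in the first 8). The depth scaling within the deposited values gave 28, 13, 8, 22, 4, 3, 9, 2 and 13. Of all genes 46.8%, 32.7%, 33.2%, 44.9%, 20.5%, 10.3%, 4.41% and 17.2% passed in the first 8. For calls at any ZT no share of all genes is given. Without mitochondrially encoded genes the counts that moved were 14, 9, 2, 16, 3, 2, 2 and 2, in the same order without any ZT. Of all genes 39.3%, 26.4%, 26.8%, 38.6%, 15.8%, 6.76%, 7.66% and 11.4% passed there. Without the filter, DRF rhythms fell to 1, food differences to 5, ZT16 to 0, ZT20 to 3 and any ZT to 3. The shares of all genes fell as well, to 18.7%, 27.5%, 3.02% and 7.67% in the first 4. With the length covariate, NRF rhythms were 6, food differences 23, ZT16 0, ZT20 1 and any ZT 1, and the median member at ZT20 differed by -0.02. Of all genes 34.5%, 45.4%, 4.17% and 11% passed in the first 4. One mean per ZT called 4 under NRF and 5 under DRF.

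A replicate block gave 5 for DRF rhythms, 2 by clock time, 2 at ZT16, 22 at ZT20 and 23 at any ZT, where 32.2%, 27.3%, 6.76% and 15% of all genes passed in the first 4. Over all genes, same-numbered libraries of the 2 regimens did not deviate together (correlation above 0.1 in 1 of 28 pairs of libraries). That check does not cover the members alone. In replicate 1 of DRF, at most 8.24% of members lay above their group mean at all times but ZT8 (49.4%). In replicate 1 of NRF the share was at most 5.88% at ZT8, ZT16 and ZT24, and 10.6% to 25.9% at ZT4, ZT12 and ZT20. At NRF ZT0 it was 91.8%. A part of the replicate number in the member levels was tested only by the block. Without ZT0 or ZT12, NRF rhythms were 4, where 35.5% and 24% of all genes passed. DRF rhythms were 0 without ZT4 (all genes 30.8%), 1 without ZT12 or ZT16 (29.7% and 18.6%), and 6 without ZT20 (24.2%). By clock time none was left without ZT12, where 17.3% of all genes were. Food differences were 2, 4, 4 and 15 without ZT12, ZT16, ZT4 and ZT20, where 35.3%, 27.4%, 41.7% and 32.6% of all genes passed. Mean level was 2 without ZT20, where 17.9% did.

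With 1 replicate number left out of all groups, counts ranged from 3 to 8 for NRF rhythms, 0 to 1 by clock time, 2 to 9 by time since food, 1 to 2 for mean level and 1 to 4 at any ZT, and DRF rhythms were 1 each time. The shares of all genes ran from 20.5% to 38.1%, 13.2% to 23.7%, 27% to 34.8% and 14.5% to 30.3% in the first 4. For DRF rhythms they ran from 16.6% to 25.8%. With 1 library or number left out, counts at single times were 0 to 1 at ZT0 and ZT24, 0 to 3 at ZT16 and 1 to 15 at ZT20. Of all genes, 4.37% to 12.2% passed at ZT0, 1.45% to 11.1% at ZT24, 0.822% to 9.26% at ZT16 and 5.3% to 18.9% at ZT20. Without DRF ZT16 replicate 4, DRF rhythms were 2, food differences 6 and calls at any ZT 7, where 28.1% and 39.9% of all genes passed in the first 2. Without DRF ZT20 replicate 1 these counts were 3, 13 and 2, where 29% and 40.4% of all genes passed in the first 2. The causes were not tested. With 4 libraries a group and a median member SE of 0.04 to 0.05 for an amplitude, amplitudes of that size were not detectable.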
